A study of Mus musculus with 20 samples.

Results

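The 10 genes described here are the transcription factors and feedback genes of the ATF4-CHOP arm of the integrated stress response: Atf4, Ddit3, Atf3, Atf5, Cebpb, Cebpg, Trib3, Ppp1r15a, Chac1 and Nupr1. They were chosen by name from the 46603 gene identifiers of the count table, and all 10 were counted in each of the 20 libraries and passed the filter on low counts in every fit. Their mRNA was measured by sequencing of total RNA from mouse cells in 10 groups of 2 libraries. The study set thapsigargin (TG), a drug that blocks the SERCA calcium pumps of the endoplasmic reticulum (ER), against its dimethyl sulfoxide vehicle, and against loss of the pump gene Atp2a2.

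4 groups were B16F10 cells, an established mouse melanoma line, of genotype Ctrl or Ccdc101 KO (knockout), each with vehicle or with TG at 50 ng/mL for 8 hours. The other 6 groups were OT-I/Cas9 CD8 T cells, which carry a transgenic T cell receptor and the Cas9 nuclease, kept in IL-2, IL-7 and IL-15. Ctrl T cells were resting, or activated on plates coated with anti-CD3 at 2.5 µg/mL for 24 hours, each with vehicle or with TG at the same dose and time. Atp2a2 KO T cells were given vehicle only and were labelled resting or activated. Every culture contained puromycin. The labels do not say what the Ctrl cells carry, whether a knockout is 1 clone or a pool, or if the 2 libraries of each group came from different cultures, so p-values measure only the spread between these libraries, which may be technical.

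ATF4 is a basic leucine zipper factor whose mRNA is translated more when the kinases PERK, GCN2, PKR or HRI phosphorylate the initiation factor eIF2α, as PERK does when ER calcium is depleted and proteins misfold. ATF4 binds DNA in pairs with C/EBP proteins and switches on further factors, among them CHOP (the product of Ddit3), ATF3 and ATF5. Some of its targets close a loop on the pathway: TRIB3 restrains ATF4 and CHOP, and GADD34 (the product of Ppp1r15a) brings a phosphatase to eIF2α. CHAC1, which degrades glutathione, and NUPR1, a small chromatin-associated stress protein, are grouped with them here. mRNA counts do not show how much ATF4 protein was made.

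Depth ran from 9985311 to 17462770 counts per library, and levels are given as CPM, counts scaled to a common library total, on 1 scale over all 20 libraries, first library and then second. Melanoma markers summed to between 10500 and 16600 CPM in melanoma libraries and to at most 7.97 in T cell libraries, CD8 T cell markers to between 3930 and 9250 CPM in T cells and to at most 7.70 in melanoma, and markers of other cells to at most 9.20 CPM anywhere. Sgf29, the current name of Ccdc101, stood at 27.9 and 26.4 CPM in Ctrl melanoma and at 18.2 and 17.4 in the KO with vehicle. Atp2a2 stood at 683 and 704 CPM in activated Ctrl T cells and at 453 and 452 in activated KO cells. The libraries labelled resting Atp2a2 KO went against their label: 12 activation markers summed to 36400 and 36500 CPM there, against 14000 to 14500 in resting Ctrl cells and 35900 to 36700 in activated Ctrl cells. Interferon gamma mRNA (Ifng) was 7550 and 7600 CPM in them and 9.59 and 10.5 in resting Ctrl cells. Sums of 8 resting T cell markers were 912 to 924 CPM in resting Ctrl cells and 952 to 964 in activated Ctrl cells. The same markers summed to 726 to 729 CPM in the KO libraries with the resting label. Atp2a2 stood at 466 and 464 CPM in those KO libraries and at 240 and 241 in resting Ctrl cells. These KO libraries are called the libraries labelled resting below, and fits without them are given where a result uses them.

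The plot of levels by library shows the 10 genes in all groups. Together they took between 0.0573% and 0.0656% of the counts of a melanoma library with vehicle and between 0.4573% and 0.4914% with TG. In Ctrl T cells their share was 0.0456% and 0.0486% at rest, 0.152% and 0.157% at rest with TG, 0.0692% and 0.0698% when activated, and 0.1743% and 0.1656% when activated with TG. In bulk RNA, fewer cells making a transcript and less transcript per cell cannot be told apart.

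**Figure D1:**
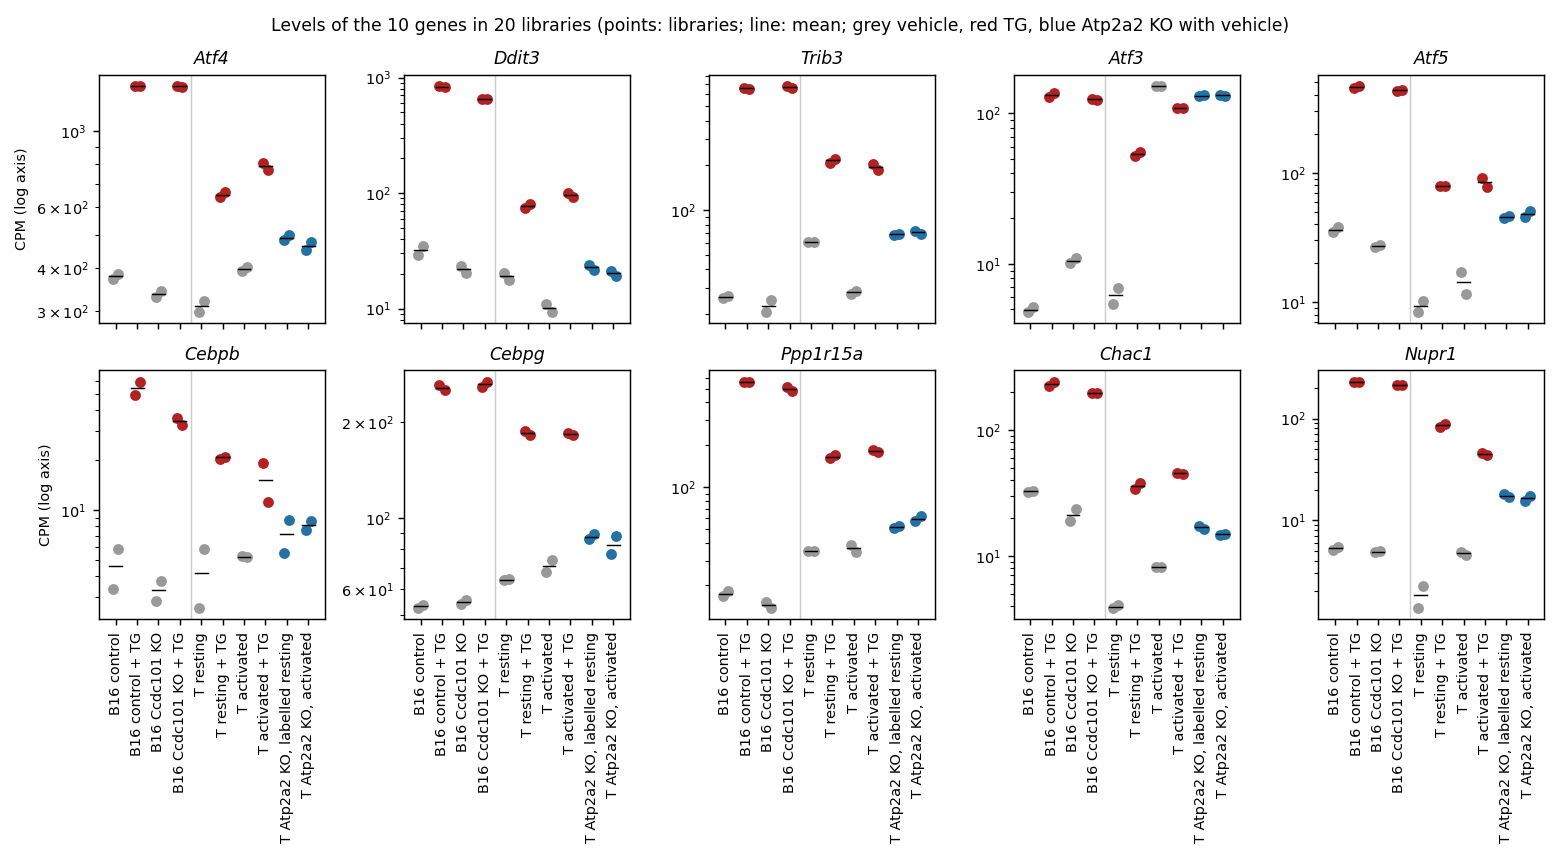
Level of each gene in the 20 libraries, in CPM on log axes that differ between panels. Points are libraries, short lines are means of 2, and the vertical line separates melanoma from T cells; 9 genes are higher with TG than with vehicle in all 4 pairs of groups, while Atf3 is at 151 and 152 CPM in activated Ctrl T cells and at 109 in both libraries with TG.

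Measured per length, Atf4 was the most abundant of the 10 in every group, at 160 ± 3.77 CPM per kilobase of exon (mean ± SD, n = 2) in Ctrl melanoma with vehicle and 573 ± 1.87 with TG. The others started far lower there, from 2.11 ± 0.108 CPM per kilobase for Nupr1 to 19.8 ± 0.259 for Chac1. With TG, Ddit3 came close behind Atf4 in Ctrl melanoma, at 489 CPM per kilobase on average, followed by Trib3 at 310. T cells kept another order. Trib3 was second to Atf4 per kilobase in resting Ctrl cells, at 28.8, and Atf3 was second in activated Ctrl cells, at 70.5.

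In Ctrl melanoma TG raised all 10 genes, each by more than 2-fold. Of the 12540 genes tested there, 71.8% were called in either direction (edgeR's quasi-likelihood test, Benjamini-Hochberg adjusted p below 0.05), 35.7% were higher, 36.1% lower, and 10.7% were higher by at least 2-fold. The median log2 change of the 10 was 4.17, against 0 over all tested genes.

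Atf4 itself moved least. It was at 371 and 384 CPM with vehicle and at 1350 in both libraries with TG, a log2 change of 1.85 ± 0.03 (SE). Ddit3, which encodes the death-promoting factor CHOP, went from 29.2 and 34.7 CPM to 848 and 826, a log2 change of 4.73 ± 0.052. Atf3, an early stress-induced relative of ATF4, was near 5 CPM with vehicle (4.77 and 5.14) and at 129 and 136 with TG. Atf5, a second ATF whose mRNA is also translated under eIF2α phosphorylation, rose from 34.7 and 37.8 CPM to 454 and 470. The libraries of the groups did not overlap for any of these 4 factors. How many of all tested genes also had no overlap was not counted. The adjusted p-values of the 4 factors lay between 5.0e-43 for Atf5 and 1.8e-32 for Ddit3.

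The C/EBP partners differed in level. Cebpg, which encodes a C/EBP that pairs with ATF4, was at 52.4 and 53.5 CPM with vehicle and at 261 and 253 with TG, a log2 change of 2.28 ± 0.045 (adjusted p = 5.3e-36). Cebpb was far lower, at 3.33 and 5.85 CPM, and reached 49.5 and 59.1 with TG (3.61 ± 0.18, adjusted p = 2.9e-08). Cebpb is a single-exon gene (chr2:167688915-167690418 on GRCm38, plus strand) of 1504 bases, of which 312 are shared with exons of Tmem189 on the opposite strand. The strand setting of the counting was not given in the sources used here, so reads from that stretch cannot be assigned to either gene.

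The 2 largest changes were those of Nupr1 and Ppp1r15a. Nupr1 rose from 5.11 and 5.50 CPM to 230 and 228, which is 43.5-fold and ranked 36 of 12540 genes by size of change. Ppp1r15a, the GADD34 gene, rose from 16.7 and 18.2 CPM to 560 and 561, or 32.4-fold. Trib3 rose from 25.8 and 26.7 CPM to 661 and 655, or 25.2-fold. Chac1, with Ddit3 and Atf5 the most abundant per length after Atf4 in vehicle, rose from 32.2 and 32.8 CPM to 224 and 241, or 7.19-fold. Each vehicle library lay below each TG library for these 4 genes, again without a count over all tested genes. The adjusted p-values of the 4 ran from 2.3e-46 for Ppp1r15a to 2.9e-32 for Chac1.

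The promoters of 4 of these genes held a match to a response element searched for, and short stretches of them are shown so that the matches can be read. All 10 genes had at least 1 RefSeq promoter window (GRCm38.p6), and the 250 bases before the transcription start were searched on both strands. The core of the element that ATF4-C/EBP pairs bind, TGATGCAA, stood in 3 of the 10 genes (Atf3, Chac1 and Nupr1), each time on the minus strand so that the printed strand reads TTGCATCA. It was in 0.791% of 32851 windows of the same length, and in 6 of 29 other ATF4 or CHOP target genes with a window. The looser form TGATGNAA was found in the same 3 genes and in 3.45% of windows. The cyclic AMP response element TGACGTCA, which ATF and CREB factors bind, was in Ppp1r15a and in 1.55% of windows. Its looser form TGACGTNA, which overlaps it, was also in Atf3 and was in 2.52% of windows. The sequences below run 5′ to 3′ on the gene's strand, with these matches in capitals.
Atf3: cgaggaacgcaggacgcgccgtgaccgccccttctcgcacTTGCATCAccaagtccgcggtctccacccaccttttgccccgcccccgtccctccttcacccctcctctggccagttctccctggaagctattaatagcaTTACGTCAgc
Chac1: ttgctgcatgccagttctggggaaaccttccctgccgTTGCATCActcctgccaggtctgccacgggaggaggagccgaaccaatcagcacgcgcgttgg
Nupr1: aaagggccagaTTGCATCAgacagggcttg
Ppp1r15a: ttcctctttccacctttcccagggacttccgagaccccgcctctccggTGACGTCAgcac

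The Atf3 stretch is chr1:191183334-191183483 on the minus strand and ends at the RefSeq start. Its composite match lies at -110 to -103 from the start and its CRE-like match at -10 to -3. The Chac1 stretch is chr2:119351012-119351111 on the plus strand, with the match at -193 to -186. The Nupr1 stretch is chr7:126625562-126625591 on the minus strand, with the match at -110 to -103 from the RefSeq start; GENCODE M21 places that stretch inside an exon of another Nupr1 transcript. The Ppp1r15a stretch is chr7:45526269-45526328 on the minus strand, with the match at -12 to -5. A match is a string of letters and was not tested for binding, and windows without one say nothing about a factor. The ER stress element, CCAAT and CCACG with 9 bases of any kind between them, was in none of the 10 genes' windows and in 0.113% of all windows. CCAAT alone was in 5 of the 10 and in 33.8% of windows, and TATAAA was in 1 of the 10 and in 12.4% of windows.

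**Figure D2:**
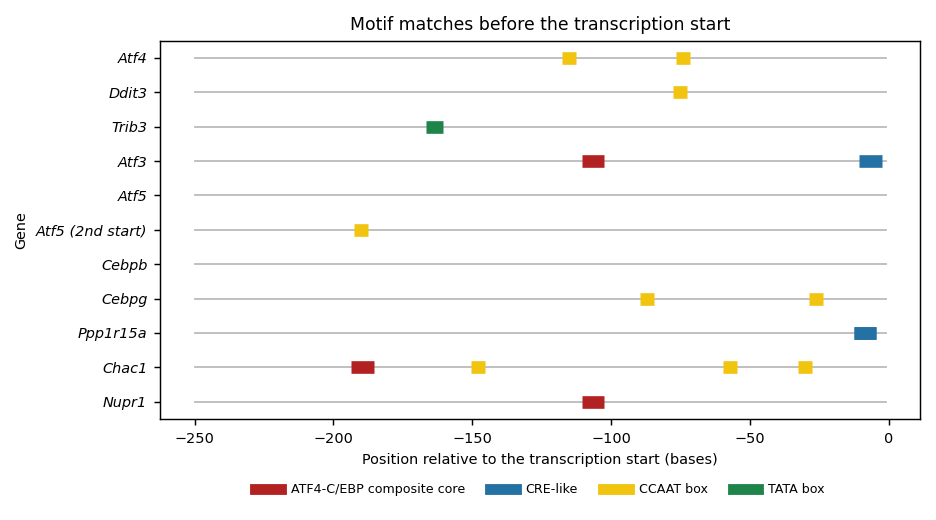
Position of motif matches in the 250 bases before each RefSeq transcription start, in bases from the start on the x axis, with 1 line per window (Atf5 has 2 windows). Red bars mark the ATF4-C/EBP composite core in Atf3, Chac1 and Nupr1, blue bars the CRE-like match close to the start of Atf3 and Ppp1r15a.

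The 3 genes with the composite core in the searched window did not all change more, or all less, than the 7 others. Sequence further from the start was not searched, so the 7 others cannot be taken as genes without the element. Whether the element affects the size of change was not tested. In Ctrl melanoma with TG, Chac1 changed by 2.85, Atf3 by 4.75 and Nupr1 by 5.44 on the log2 scale, while the 7 others ran from 1.85 for Atf4 to 5.02 for Ppp1r15a.

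Other genes of the pathway were read from lists. Over all genes tested in Ctrl melanoma, 35.7% rose and 36.1% fell with TG. Of 39 targets of ATF4 and CHOP outside the 10, mostly amino acid transporters, amino acid synthesis enzymes and tRNA synthetases, 37 were tested in Ctrl melanoma. 36 of them rose with TG and Tnfrsf10b, a death receptor gene, was not called (-0.15 ± 0.16); the list's median log2 change was 1.94. The 3 largest changes were in genes close to 0 with vehicle. Fgf21, a secreted metabolic hormone, had 0 counts in both vehicle libraries and 1.46 and 1.69 CPM with TG. Soat2 had 1 and 0 counts with vehicle and 3.56 and 3.82 CPM with TG, and Vldlr had 2 and 0 counts and then 2.10 and 1.78 CPM. All 19 tested genes of the IRE1 and ATF6 branches of the unfolded protein response rose, by a median of 2.53, led by the ER co-chaperone Dnajb9 (11.3 and 10.2 CPM to 180 in both libraries). Among 30 tested genes on a list of other basic leucine zipper factors, which shares Atf6 and Xbp1 with the list before, 19 rose and 3 fell. Nfil3 (log2 change 3.48), Atf6 (2.96) and Fosl2 (2.61) moved most.

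Upstream of ATF4, 17 genes were listed for eIF2 phosphorylation: subunits of eIF2 and eIF2B, eIF2 kinases, phosphatase catalytic subunits, Gcn1l1 and Impact. With TG in Ctrl melanoma 6 of them were higher and 10 lower, where 35.7% of all tested genes were higher and 36.1% lower. The PERK gene Eif2ak3 rose from 53.6 and 55.4 CPM to 154 and 156, a log2 change of 1.52 ± 0.048 (adjusted p = 1.9e-28). Paralogs of the 10 moved little by comparison. Of 6 tested, 4 rose and 1 fell. Jdp2, a relative of Atf3 that is also on the list of targets, rose by 1.32 on the log2 scale, and Trib2, a relative of Trib3, changed by -0.94.

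Ccdc101 is a reader subunit of the SAGA acetyltransferase complex, and TG also raised the 10 genes in cells labelled Ccdc101 KO. Sgf29 mRNA was still at 18.2 and 17.4 CPM in these cells with vehicle. Its protein and the share of edited cells were not measured in these data. In KO melanoma all 10 rose, each by more than 2-fold, where 70.3% of 12540 genes were called, 34.1% were higher and 8.64% were higher by at least 2-fold. Their median log2 change was 3.77. Ddit3 went from 23.4 and 20.4 CPM to 657 and 647, and Atf4 from 329 and 343 to 1350 and 1340.

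5 of the 10 TG effects differed between KO and Ctrl melanoma in a test of the difference, where 13.1% of genes were called, 7.16% with the higher change in the KO and 5.95% with the lower. Atf3 had the largest difference, at -1.20 ± 0.14 on the log2 scale (adjusted p = 3.0e-08). With vehicle it was 10.1 and 10.9 CPM in the KO against 4.77 and 5.14 in Ctrl cells, and with TG 125 and 123 against 129 and 136. The smaller rise in the KO thus began from a higher level and ended close to the same level. Chac1 (0.36 ± 0.093, adjusted p = 0.0067), Atf5 (0.30 ± 0.075, adjusted p = 0.0046), Trib3 (0.23 ± 0.079, adjusted p = 0.045) and Atf4 (0.15 ± 0.042, adjusted p = 0.012) rose slightly more in the KO. The Trib3 difference lost its call in 8 alternative fits, among them DESeq2, and the count of 5 fell to 2 without the second Ctrl vehicle library, to 2 without the first KO vehicle library and to 3 without the first KO library with TG.

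Between genotypes, 25.7% of genes were called with vehicle (12.4% higher in the KO, 13.3% lower) and 31.5% with TG (15% lower). With vehicle 1 of the 10 was higher in the KO, Atf3 at 1.11 ± 0.13 (adjusted p = 1.4e-08), and 4 were lower. Chac1 was at 19 and 23.5 CPM in the KO against 32.2 and 32.8 (log2 change -0.60 ± 0.081), Ddit3 changed by -0.51 ± 0.076, Atf5 by -0.39 ± 0.065 and Atf4 by -0.15 ± 0.031. Of the 37 tested targets outside the 10, 3 were higher and 18 lower, with the cystine transporter gene Slc7a11 at 14.5 and 16.5 CPM against 24.8 and 25.5. With TG 4 of the 10 were lower in the KO. Ddit3 stood at 657 and 647 CPM against 848 and 826 in Ctrl cells (-0.35 ± 0.039, adjusted p = 3.9e-08), and Cebpb at 35.9 and 32.4 against 49.5 and 59.1 (-0.67 ± 0.13, adjusted p = 0.0031). Chac1 (-0.24) and Ppp1r15a (-0.16) changed less. Atf4 was level between genotypes with TG, with a 95% interval of the log2 difference from -0.06 to 0.06. The Cebpb call was lost in DESeq2 (-0.66), and the Ppp1r15a call without the second KO library with TG (-0.11).

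**Figure D3:**
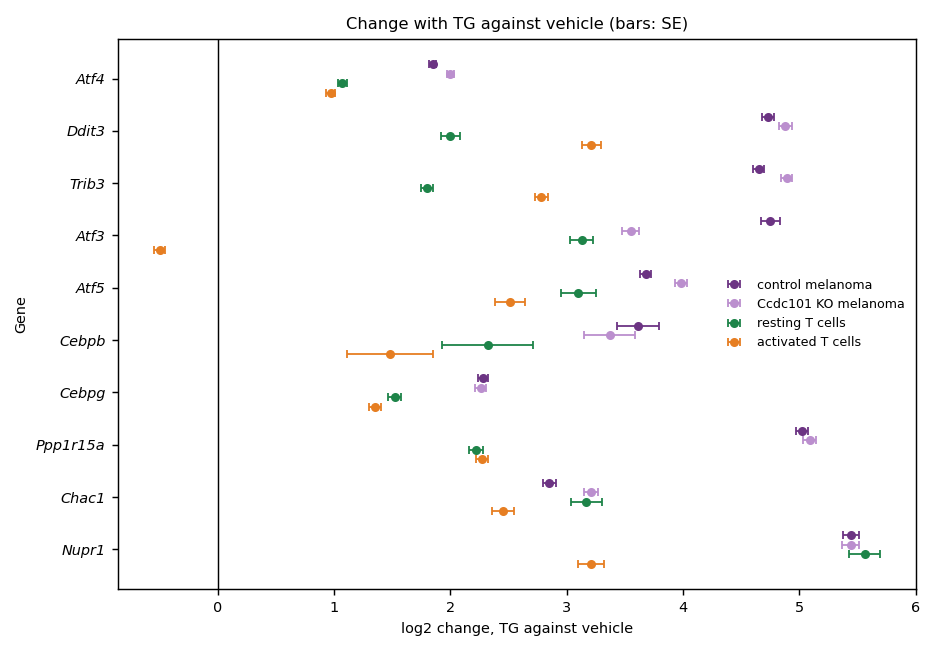
log2 change with TG against vehicle (x axis) for each gene in Ctrl melanoma, Ccdc101 KO melanoma, resting T cells and activated T cells; bars are standard errors. The melanoma points lie to the right of the T cell points for 8 genes, all but Chac1 and Nupr1, and the point for Atf3 in activated T cells, at -0.50, is the only one left of 0.

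In resting Ctrl T cells TG also raised all 10 genes, each by at least 2-fold. There 69.2% of 13432 genes were called, 34.1% higher, 35.2% lower and 11% higher by at least 2-fold, and the median log2 change of the 10 was 2.27. Atf4 went from 298 and 321 CPM to 641 and 665 (1.07 ± 0.039, adjusted p = 1.3e-31). Ddit3 went from 20.2 and 17.8 CPM to 74.3 and 79.9, or 3.99-fold, where it rose 26.5-fold in Ctrl melanoma. Nupr1 went from 1.37 and 2.27 CPM to 82.5 and 89.0 (5.56 ± 0.13), the largest change of the 10 and close to that in melanoma. Chac1 (3.85 and 4.04 to 33.9 and 38.1 CPM), Atf3 (5.39 and 6.90 to 52.3 and 55.5) and Atf5 (8.39 and 10.2 to 79.3 and 79.8) each rose by more than 3 on the log2 scale. Trib3 began higher than in melanoma, at 60.8 and 61.5 CPM, and reached 209 and 222. Cebpg rose from 64.2 and 64.4 CPM to 188 and 183 and Ppp1r15a from 34.9 in both libraries to 160 and 168. Vehicle and TG libraries did not overlap for any of the 10, but the share of all tested genes without overlap was not counted.

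The TG effect in Ctrl melanoma differed from that in resting T cells for 7 of the 10 genes, all larger in melanoma. 47.4% of 14824 genes differed in this test, 23.6% with the higher change in melanoma. Trib3 (2.83 ± 0.076), Ppp1r15a (2.78 ± 0.089) and Ddit3 (2.71 ± 0.11) differed most, with adjusted p-values of 5.2e-46, 3.4e-41 and 8.5e-26. Atf3 differed by 1.60, Atf4 by 0.76, Cebpg by 0.75 and Atf5 by 0.57, the last of which lost its call without the first melanoma vehicle library (0.50), the second melanoma TG library (0.49), the second resting vehicle library (0.44) or either resting TG library (0.56 and 0.57). For Chac1 and Nupr1 the difference was not called, with 95% intervals from -0.68 to -0.01 and from -0.61 to 0.34, and for Cebpb from 0.02 to 2.51. The doses and times were the same, while the cells, media and starting levels were not. With vehicle, Ctrl melanoma had more Chac1 (log2 difference 3.04), Atf5 (1.97), Nupr1 (1.56), Ddit3 (0.73) and Atf4 (0.29) than resting T cells, and less Trib3 (-1.22), Ppp1r15a (-1.01) and Cebpg (-0.28), in a comparison where 83.7% of genes were called, 40.8% higher and 43% lower in melanoma.

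Activation by anti-CD3 changed the 10 genes unevenly in Ctrl T cells with vehicle. 6 rose, 2 fell and 2 were not called, where 74.4% of genes were called, 35.3% higher and 39.1% lower. Atf3, which is also an early gene of receptor signalling, rose from 5.39 and 6.90 CPM to 151 and 152, a log2 change of 4.69 ± 0.079 (adjusted p = 7.2e-48). That is more than TG gave in resting cells, and Atf3 was the highest of all 10 groups there. Nupr1 (1.45), Chac1 (1.10), Atf5 (0.72), Atf4 (0.42) and Cebpg (0.20) rose by less. The Atf5 call was lost without the first resting vehicle library (0.59) and the Cebpg call without the second activated vehicle library (0.14). Trib3 fell from 60.8 and 61.5 CPM to 27.2 and 28.9 (-1.07 ± 0.067, adjusted p = 4.2e-21). Ddit3 fell from 20.2 and 17.8 CPM to 11 and 9.31 (-0.84 ± 0.11, adjusted p = 3.2e-09), its lowest level in any group. Ppp1r15a (0.14, 95% interval 0 to 0.28) and Cebpb were not called. Among the 37 tested targets outside the 10, 29 rose and 6 fell with activation.

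When activated Ctrl T cells were given TG, 9 of the 10 genes rose and Atf3 fell. 65% of genes were called, 32.6% higher, 32.4% lower and 8.29% higher by at least 2-fold, and 8 of the 10 were higher by at least 2-fold. Ddit3 rose from 11 and 9.31 CPM to 100 and 92.6 (3.21 ± 0.081, adjusted p = 5.9e-39). Nupr1 rose from 4.91 and 4.5 CPM to 45.4 and 43.7, and Trib3 from 27.2 and 28.9 to 204 and 187. Atf3 went from 151 and 152 CPM to 109 in both libraries, a log2 change of -0.50 ± 0.045 (adjusted p = 8.9e-15). Its groups did not overlap, and the share of all tested genes without overlap was not counted. Atf4 rose from 392 and 403 CPM to 806 and 772, Atf5 from 17.1 and 11.6 to 91.2 and 78.3, Chac1 from 8.09 and 8.22 to 45.7 and 44.6, Ppp1r15a from 39.0 and 34.7 to 183 and 179, and Cebpg from 68.1 and 74.2 to 185 and 182. Cebpb was at 5.27 and 5.20 CPM and then at 19.1 and 11.1. Its call was lost without the first activated vehicle library (1.49). The sum of the 12 activation markers moved with TG as well, from between 35900 and 36700 CPM to between 24300 and 24400 in activated cells and from between 14000 and 14500 to between 8850 and 8870 at rest; its part in the Atf3 result was not tested.

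The TG effect differed between activated and resting T cells for 5 of the 10 genes, in a test where 51.9% of genes were called, 26.7% with the higher change in activated cells and 25.2% with the lower. The count of 5 was thus near the share over all genes. The TG effect was larger in activated cells for Ddit3 (1.21 ± 0.13, adjusted p = 7.7e-12) and Trib3 (0.98 ± 0.08, adjusted p = 8.5e-16), the 2 genes that activation alone lowered. Both results use the same vehicle libraries, so a low vehicle level in activated cells enters both. With TG, Trib3 was at 209 and 222 CPM in resting and 204 and 187 in activated cells, so that the groups differed with vehicle more than with TG. The effect was smaller in activated cells for Atf3 (-3.63 ± 0.11, adjusted p = 8.9e-35), Nupr1 (-2.35 ± 0.24, adjusted p = 4.3e-12) and Chac1 (-0.72 ± 0.19, adjusted p = 0.00099). For Atf4 the difference was not called, with a 95% interval from -0.20 to 0.01, and for Ppp1r15a it ran from -0.12 to 0.22. With TG in both, activated against resting cells, 5 of the 10 were higher and 1 lower, where 63.8% of genes were called, 32% higher and 31.9% lower. Nupr1 was the lower one, at 45.4 and 43.7 CPM against 82.5 and 89.0, and Atf3 led the higher ones, at 109 in both libraries against 52.3 and 55.5.

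Against activated T cells, the TG effect in Ctrl melanoma was larger for all 10 genes, where 43.4% of 14824 genes differed and 21.6% differed in that direction. The difference was 5.22 ± 0.093 for Atf3 (adjusted p = 4.3e-57), which rose in melanoma and fell in activated T cells. Ppp1r15a (2.72), Nupr1 (2.21), Cebpb (2.10), Trib3 (1.84), Ddit3 (1.49), Atf5 (1.15), Cebpg (0.91), Atf4 (0.85) and Chac1 (0.37) followed. The Chac1 call was lost in DESeq2 (0.37), without the second melanoma TG library (0.28) and without the first activated vehicle library (0.38). These comparisons between cell types share their melanoma libraries, and those within T cells share the activated or resting vehicle libraries, so they are not independent of each other.

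Most other genes of the pathway also rose in both T cell states. Over all tested genes 34.1% rose and 35.2% fell at rest, and 32.6% rose and 32.4% fell in activated cells. Of 37 tested targets outside the 10, 34 rose and 1 fell with TG in resting cells (median 1.27), and 35 rose and 1 fell in activated cells (median 1.09). The one that fell was Ddit4, an inhibitor of mTORC1 signalling, at 398 and 429 CPM with vehicle and 181 and 182 with TG at rest (-1.20 ± 0.079), where it rose in melanoma from 13.4 and 13.5 to 135 and 141. In resting cells Cth, which makes cysteine, rose from 0.257 and 0.592 CPM to 48.4 and 48.0, the mitochondrial folate enzyme Aldh1l2 from 0.856 and 0.493 to 41.2 and 42.2, and the glycine transporter Slc6a9 from 4.45 and 4.24 to 141 and 140. In activated cells Aldh1l2 (4.84), Slc6a9 (3.40) and Slc7a11 (3.33) rose most on the log2 scale. 18 of 20 IRE1 and ATF6 branch genes rose and Edem1 fell in each state, with medians of 0.65 and 0.54. Of 31 tested genes on the leucine zipper list, 18 rose and 7 fell at rest and 17 rose and 9 fell in activated cells. Creb3l2 was first in both (3.16 and 1.83).

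The PERK gene Eif2ak3 fell with TG in both T cell states, where 10 of the 10 rose at rest and all but Atf3 rose in activated cells. It went from 332 and 329 CPM to 83.8 and 81.1 at rest (-2.02 ± 0.043, adjusted p = 8.4e-43) and from 137 and 133 to 85.3 and 88.7 in activated cells (-0.66 ± 0.045, adjusted p = 3.2e-19). Of the 17 genes on the eIF2 list, 7 rose and 5 fell at rest, where 34.1% of all tested genes rose and 35.2% fell. In activated cells 4 rose and 11 fell, where 32.6% of all tested genes rose and 32.4% fell. Among paralogs, Trib2 rose from 3.48 and 3.18 CPM to 33.4 and 33.9 in activated cells and from 26.2 and 23.5 to 49.7 and 51.1 at rest.

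Loss of Atp2a2 in activated T cells moved 9 of the 10 genes with vehicle alone, each of them by less than TG did. 8 of the 10 were higher in the KO, Atf3 was lower and Cebpb was not called, where 37.1% of genes were called, 17.5% higher, 19.6% lower and 2.61% higher by at least 2-fold. 3 of the 10 were higher by at least 2-fold. Nupr1 was at 15.4 and 17.5 CPM against 4.91 and 4.5 (1.76 ± 0.13, adjusted p = 1.5e-16), Atf5 at 45.9 and 50.9 against 17.1 and 11.6 (1.70 ± 0.14, adjusted p = 9.8e-07), and Trib3 at 72.2 and 69.7 against 27.2 and 28.9 (1.32 ± 0.063, adjusted p = 5.3e-25). Ddit3 was at 21.1 and 19.1 CPM against 11 and 9.31, near its level of 20.2 and 17.8 in resting Ctrl cells. Chac1 (0.84), Ppp1r15a (0.66), Atf4 (0.20) and Cebpg (0.19) rose by less, and the Cebpg call was lost in DESeq2 (0.18), without the first Ctrl library (0.12) and without the second KO library (0.10). Atf3 was at 133 and 130 CPM against 151 and 152 (-0.23 ± 0.043, adjusted p = 1.8e-05), lower as with TG. Atp2a2 mRNA was still at 453 and 452 CPM in these cells, and SERCA2 protein and the share of edited cells were not measured in these data.

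**Figure D4:**
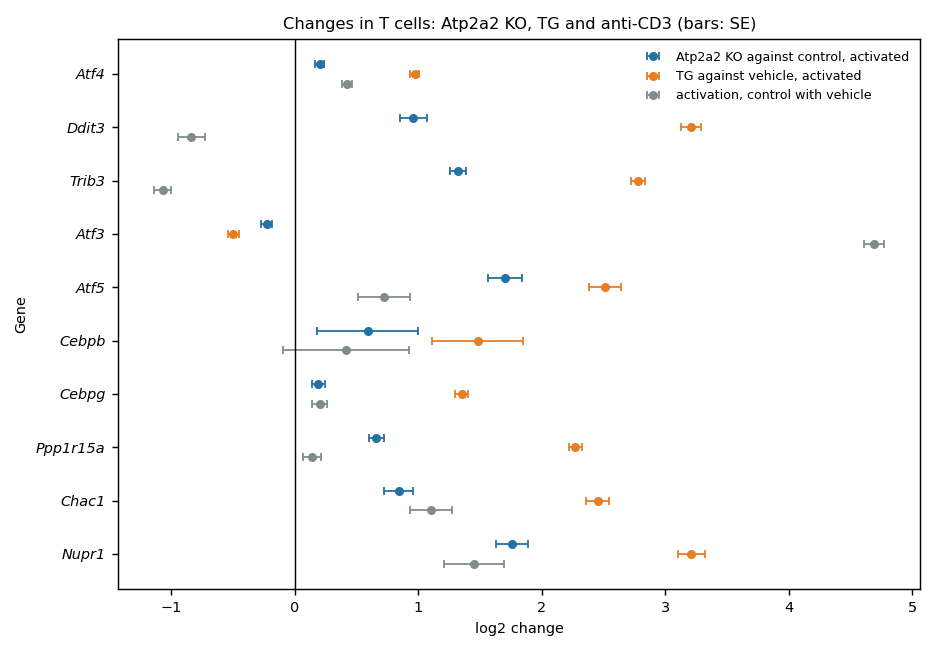
log2 change (x axis) of each gene in T cells for Atp2a2 KO against Ctrl in activated cells with vehicle, TG against vehicle in activated Ctrl cells, and activation in Ctrl cells with vehicle; bars are standard errors. All 3 use the activated Ctrl vehicle libraries. The KO points lie between 0 and the TG points for all 10 genes, and Atf3 is at -0.23 with KO, -0.50 with TG and 4.69 with activation.

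Set directly against activated Ctrl cells with TG, activated KO cells with vehicle had less of 8 genes and more Atf3, where 60.5% of genes were called, 30% higher and 30.5% lower. Ddit3 was at 21.1 and 19.1 CPM against 100 and 92.6 (-2.25 ± 0.072, adjusted p = 5.5e-34), the widest gap of the 10. Chac1 and Ppp1r15a (both -1.61), Trib3 (-1.46), Nupr1 (-1.45), Cebpg (-1.16), Atf5 (-0.81) and Atf4 (-0.77) were lower, and Atf3 was higher by 0.27. These gaps were not scaled to each gene's own rise with TG, so their order does not rank how far the KO resembled TG. The contrast sets 8 hours of drug against a lasting loss of the gene, and time and mode of block cannot be told apart in it. Of 37 tested targets outside the 10, 34 were higher and 1 lower in the KO than in Ctrl cells (median 0.40), and 2 were higher and 33 lower than with TG. Jdp2 (2.03), Aldh1l2 (1.86) and Slc7a11 (1.84) led the targets raised in the KO. Of the 20 IRE1 and ATF6 branch genes 14 were higher and 1 lower in the KO, by a median of only 0.16. Over all tested genes 17.5% were higher and 19.6% lower in the KO than in Ctrl cells.

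The libraries labelled resting Atp2a2 KO gave nearly the values of the activated KO libraries for the 10 genes. Activated against labelled resting KO libraries, edgeR's quasi-likelihood test called 0 of the 10 and 0.588% of 13432 genes, and 3 of the 10 had an unadjusted p below 0.05; DESeq2 also called 0 of the 10. Atf3 was at 131 and 132 CPM in the libraries labelled resting and 133 and 130 in the activated ones, and Ddit3 at 24.0 and 21.6 and at 21.1 and 19.1. The 95% intervals of the log2 difference ran from -0.18 to -0.03 for Atf4, from -0.11 to 0.07 for Atf3 and from -0.34 to 0.10 for Nupr1. Against resting Ctrl cells, the libraries labelled resting had 9 of the 10 higher and Cebpb not called, where 69.6% of genes were called and 33.7% were higher. Atf3 led at 4.48 ± 0.083 (131 and 132 CPM against 5.39 and 6.90), a change of the size that activation gave in Ctrl cells, so loss of Atp2a2 and the activated state cannot be told apart in that comparison. Ddit3 differed there by 0.31 and lost its call without the second resting Ctrl library (0.23) or the first KO library (0.24). Leaving both libraries labelled resting out of the fit left the number of the 10 called in each direction the same in the 7 other T cell comparisons.

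Over the 10 groups the levels of the genes other than Atf3 were correlated, though not every comparison moved them the same way. With activation alone Trib3 and Ddit3 fell while Nupr1, Chac1, Atf5, Atf4 and Cebpg rose. Pearson's r of log2 mean CPM was between 0.79 and 0.98 for every pair without Atf3 and between 0.35 (Ddit3) and 0.64 (Ppp1r15a) for pairs with it. The points are 10 groups, 4 of them with TG, and share libraries and scaling. The spread of r over pairs of other genes was not computed, and genes outside the 10 reached up to 0.992 with Atf4. Among 10422 other genes with at least 10 CPM in some group, those most like Atf4 over the 10 groups were Serp1 (0.992), Sars (0.992), Ndel1 (0.991), Dnajb9 (0.987) and Them4 (0.987). Among those most like Ddit3 were Acot2 (0.987), Btbd9 (0.986), Derl1 (0.986) and Mia3 (0.982). By level, Atf4 in TG-treated melanoma was highest and indistinguishable between genotypes, followed by activated and then resting T cells with TG, the Atp2a2 KO libraries, activated Ctrl cells, melanoma with vehicle and resting T cells. For Ddit3 the order was Ctrl and then KO melanoma with TG, activated and then resting T cells with TG, and Ctrl melanoma with vehicle. The libraries labelled resting Atp2a2 KO, KO melanoma with vehicle, activated Atp2a2 KO and resting Ctrl T cells followed, each overlapping the next in that order, while the first and last of them did not overlap, and activated Ctrl T cells were lowest.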

How the data were processed

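The values analysed are gene counts as deposited by the authors for 20 libraries. The submitters' processing notes name STAR 2.6.0c, HTSeq and the GRCm38/mm10 build for these deposited counts; the HTSeq version, the annotation and the strand setting are not given in the sources used here. By default HTSeq leaves out reads that map to several places or to overlapping genes. Of 46603 identifiers 46005 were named from GENCODE M21, and the unnamed 598 held 0.0759% of the counts.

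Differential expression used edgeR 4.0.16 under R 4.3.3 (TMM scaling, filterByExpr, robust quasi-likelihood test, Benjamini-Hochberg adjustment over all tested genes, threshold 0.05). 3 fits were made: 8 melanoma libraries (12540 genes, 4 residual degrees of freedom, biological coefficient of variation 2.71%), 12 T cell libraries (13432, 6, 2.80%) and all 20 (14824, 10, 2.77%), the last for comparisons between cell types. A standard error is the log2 change over the square root of F. CPM were scaled over all 20 libraries. Replicates differed beyond counting noise in every group (chi-square per degree of freedom 1.43 to 3.09), so none was taken as a repeat deposit of another. The fit was tested on simulated data.

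The genes, the lists and the 17 comparisons were chosen with earlier results of these data known. Named genes are the 10, Sgf29, Atp2a2, up to 3 called genes with the largest change per list and comparison, and the 5 genes most like Atf4 and Ddit3 (1 is not reported here); Ifng, Eif2ak3, Ddit4, Edem1, Tnfrsf10b and paralogs named outside this rule were chosen after their values were seen. Results were recomputed leaving out each library, with a replicate block, in the compared groups alone, in DESeq2 1.42.0, unfiltered, with at least 5 CPM required in 2 libraries, and by relative log expression scaling. Promoter windows are from RefSeq.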

Additional observations from a re-analysis of the deposited data

Results flagged for a closer look

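The change with TG was compared between groups by testing the difference of the log2 changes, and every gene whose difference was called is listed with that difference. Over all tested genes the difference was called for 13.1%, 51.9%, 47.4% and 43.4% in these tests, in the order given below. In Ccdc101 KO minus Ctrl melanoma the change differed for Atf3 (-1.20), Chac1 (0.36), Atf5 (0.30), Trib3 (0.23) and Atf4 (0.15). In activated minus resting Ctrl T cells it differed for Atf3 (-3.63), Nupr1 (-2.35), Ddit3 (1.21), Trib3 (0.98) and Chac1 (-0.72). In Ctrl melanoma minus resting Ctrl T cells it differed for Trib3 (2.83), Ppp1r15a (2.78), Ddit3 (2.71), Atf3 (1.60), Atf4 (0.76), Cebpg (0.75) and Atf5 (0.57). In Ctrl melanoma minus activated Ctrl T cells it differed for Atf3 (5.22), Ppp1r15a (2.72), Nupr1 (2.21), Cebpb (2.10), Trib3 (1.84), Ddit3 (1.49), Atf5 (1.15), Cebpg (0.91), Atf4 (0.85) and Chac1 (0.37). Groups of 2 libraries are too small to look for a single library far from the others.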

How the results depend on the processing

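Of 3161 recomputed log2 changes of the 10 genes over 27 alternatives, 3028 kept their direction and side of the threshold, 31 lost the call, 72 gained one and 30 changed sign. Of 125 calls, 112 held under every alternative tried, 13 were lost in at least 1, and 0 changed sign. Of 317 recomputed counts of called members, 313 stayed within 1.5 times; the count for activated against resting TG effects was 8 with no filter (5 to 7 with a library left out), and that for KO against Ctrl melanoma TG effects ran from 2 to 5 with a library left out. Signs changed only among differences not called. With no filter these were the KO minus Ctrl melanoma TG effects of Cebpg (0.03) and Nupr1 (0.04), the activated minus resting TG effect of Ppp1r15a (-0.03) and activated minus labelled resting KO for Atf3 (0.004). Nupr1 was also at 0.01 with relative log expression scaling and 0.02 in DESeq2, and Atf4 in KO against Ctrl melanoma with TG at -0.01 with the 5 CPM filter and -0.003 with only the compared groups. With a library left out, that Atf4 difference ran from -0.01 to 0.01, and the KO minus Ctrl melanoma TG effects from -0.65 to 0.17 for Cebpb, -0.05 to 0.01 for Cebpg and -0.05 to 0.07 for Nupr1. Likewise Cebpb ran from -0.09 to 1.08 with activation, -0.15 to 0.52 between KO T cell groups and -0.38 to 0.80 between cell types with vehicle, and the T cell TG difference of Ppp1r15a from -0.04 to 0.14. Trib3 (-0.004 to 0.04) and Atf5 (-0.03 to 0.14) between KO T cell groups and the Nupr1 TG effect in melanoma minus resting T cells (-0.52 to 0.20) completed these; the cause was not tested. Replicate numbers did not pair the libraries (correlations of same-numbered deviations -0.09 to 0.04 in melanoma and -0.14 to 0.11 in T cells), and with the replicate block 10 of the 10 were still called with TG in Ctrl melanoma and no count of called members changed. Over all genes DESeq2 called 1447 against 3218 for KO against Ctrl melanoma with vehicle, 2031 against 3956 with TG, 702 against 1644 for their difference, and 3000 against 4986 for Atp2a2 KO in activated cells. Activated against labelled resting KO had 79 calls, 184 with no filter and 37 in DESeq2, and 38, 15, 23 and 191 without each KO library in turn. IRE1 and ATF6 genes higher in Atp2a2 KO were 14, and 8 with no filter or in DESeq2. Genes of the eIF2 list higher with TG were 3 against 6 in Ctrl melanoma in DESeq2. They were 2 against 4 in activated T cells with no filter or in DESeq2, and those lower at rest were 3 against 5 in DESeq2. Paralogs higher in Ctrl melanoma were 2 against 4 with no filter or in DESeq2. Counts were low without TG for Cebpb (2.57 to 8.73 CPM) and, in resting Ctrl T cells, for Nupr1 (1.37 and 2.27).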
